A study of Drosophila melanogaster with 3 samples.

Results

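Summits of tagged Lhr protein that lie inside annotated transposons of Drosophila melanogaster are described here, family by family and library by library. A peak of the combined relaxed list was kept when its summit, the deposited position of highest signal within the peak, fell inside a transposable element record of the Release 6 gene models (the assembly dm6) on arm 2L, 2R, 3L or 3R or on chromosome 4, X or Y. Of 20761 summits, 775 met this rule, or 3.73%. A summit inside several nested records was given to the shortest, which concerned 107 summits. The 3 libraries are biological replicates of 1 group, per the labels. Each came from embryos aged 0 to 14 hours, males and females together, of a transgenic line carrying Lhr with GFP at its C-terminal end, and a GFP antibody recovered the protein from chromatin of 200 to 800 bp. Every sample thus carries the tagged protein, no cell type is separated, and the labels name a single donor strain. The relaxed lists were made to include background as well as peaks, against 1 control alignment shared by all libraries, and that control is not analysed here.

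Transposons are mobile DNA. LTR and non-LTR retrotransposons copy themselves through RNA, terminal inverted repeat elements move as DNA, and INE-1 is an old, short, Helitron-like element found in large numbers of inactive copies. HeT-A is a non-LTR retrotransposon that builds the ends of fly chromosomes in place of telomerase repeats, and gypsy is an LTR retrotransposon whose leader holds a well-known insulator. In flies many copies sit in pericentric heterochromatin and on chromosome 4, packaged by heterochromatin protein 1 (HP1), and small RNAs of the Piwi pathway direct silencing to them. Lhr is a partner of HP1 and of Hmr, and loss of either Lhr or Hmr is known to raise transcripts of several transposons.

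The sequences at leading summits are given on dm6, each from RefSeq's Release 6 genome, with those of the strongest summits of the families G5, HeT-A, INE-1 and hoppel first. The family is called hoppel here, a synonym taken from general knowledge and not from the annotation, because its record name is a bare number, which is given beside it in the plot of summits by family. Each of these sequences is centred on the summit, on the plus strand, in lower case because it held none of the searched words.
G5{}492, chr2L:21397396-21397496: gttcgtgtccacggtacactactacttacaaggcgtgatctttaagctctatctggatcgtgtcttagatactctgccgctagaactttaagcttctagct
HeT-A{}6262, chr4:1318984-1319084: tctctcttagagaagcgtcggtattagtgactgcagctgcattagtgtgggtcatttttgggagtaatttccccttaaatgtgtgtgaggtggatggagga
INE-1{}4982, chr2L:4030611-4030711: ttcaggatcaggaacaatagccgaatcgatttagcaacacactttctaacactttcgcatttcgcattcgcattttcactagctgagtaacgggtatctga
hoppel, copy FBti0020434, chr4:796726-796826: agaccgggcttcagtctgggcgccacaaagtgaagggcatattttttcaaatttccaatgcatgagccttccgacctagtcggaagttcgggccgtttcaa
A further set shows the word TATCGATA, in capitals, within 100 bp of INE-1 summits in 5 copies, each read in the annotated direction of its copy. These 5 are the strongest such copies among those that could be printed and were chosen after their values were seen. In the last 4 the 12 letters that follow the word are the same. Over all 5 the unbroken run of shared letters after the word is 1 letter long.
INE-1{}5608, chrX:19371604-19371671, minus strand: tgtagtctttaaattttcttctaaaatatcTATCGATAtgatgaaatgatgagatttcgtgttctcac
INE-1{}5485, chr4:1148155-1148222, minus strand: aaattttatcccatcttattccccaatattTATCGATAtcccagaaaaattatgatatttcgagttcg
INE-1{}2257, chr2L:21619345-21619412, plus strand: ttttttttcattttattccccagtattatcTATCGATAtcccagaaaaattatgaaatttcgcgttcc
INE-1{}4837, chr4:180809-180872, plus strand: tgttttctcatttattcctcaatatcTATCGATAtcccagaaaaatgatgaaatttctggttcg
INE-1{}4159, chr4:54855-54922, minus strand: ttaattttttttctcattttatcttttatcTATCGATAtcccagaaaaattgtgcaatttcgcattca

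Members were spread over many families. Of 134 named families, 97 held at least 1 summit and 22 held exactly 1. By class, LTR retrotransposons held 247 summits, non-LTR retrotransposons 233, the Helitron-like class 160, terminal inverted repeat and foldback elements 113, and telomeric elements 16. The other 6 summits lay in records without a family name, which were not classed. The families INE-1, hoppel and Cr1a together held 266 of the 775 summits. The number of records that held a summit was 586 of 5889, or 9.95%, and 136 of them held 2 or more. Records with a summit had a median length of 901.5 bp, against 343 bp for those without. This order did not hold throughout. In LTR retrotransposons the medians were 1417.5 bp with a summit and 2486 bp without, while each other class kept the order. Among all records of 500 bp or more they were 1544 bp and 2077.5 bp.

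INE-1 led in each of the 3 libraries. INE-1 held 166, 238 and 129 summits in replicates 1, 2 and 3 (mean 178 ± 55.4, SD, n = 3) and 160 in the combined list. For hoppel, a terminal inverted repeat element, the libraries gave 51, 65 and 43 summits (53.0 ± 11.1) and the combined list 56. Cr1a, a non-LTR retrotransposon, held 72, 65 and 42 summits (59.7 ± 15.7), so that its place relative to hoppel changed between libraries. The lowest library value of INE-1 lay above the highest of any other named family.

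Behind these came families with lower counts in every library. The LTR retrotransposon gypsy8 held 36, 23 and 30 summits (29.7 ± 6.51), and gypsy12 held 26, 26 and 21 (24.3 ± 2.89). The non-LTR retrotransposons Rt1b and Rt1a held 23, 21 and 23 (22.3 ± 1.15) and 16, 15 and 16 (15.7 ± 0.577). HeT-A held 16, 15 and 13 (14.7 ± 1.53), and gypsy itself 10, 10 and 6 (8.67 ± 2.31). The counts of HeT-A and Rt1a did not differ beyond their spread. In each library gypsy8 held more than Rt1b, while the place of gypsy12 relative to both changed between libraries. The libraries differ in list length, with 22598, 30000 and 18934 peaks, and replicate 2, with the longest list, gave the highest count for INE-1 and hoppel but the lowest for gypsy8 and Rt1b.

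**Figure D1:**
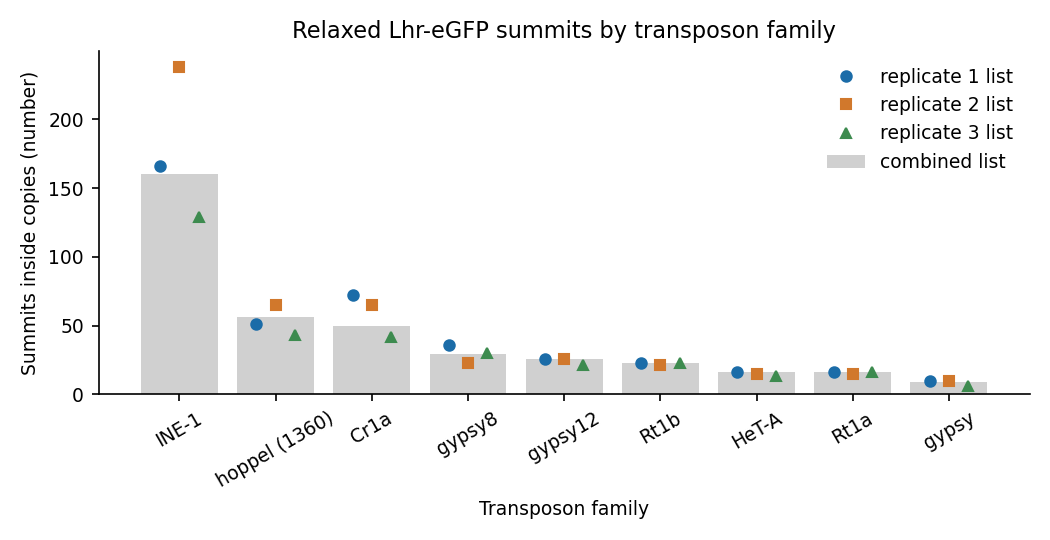
Number of summits (vertical axis) inside copies of each named transposon family (horizontal axis), with bars for the combined relaxed list and points for the relaxed list of each library. INE-1 stood highest in the combined list with 160 summits and in each library with 129 to 238, and gypsy lowest of those shown with 9.

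The share of summits inside transposons was below the share of bases inside them. Transposon records cover 5.91% of the bases of these arms, and the libraries placed 3.67%, 3.17% and 3.57% of their summits there (mean 3.47% ± 0.266, n = 3). Per Mb, the combined list held 95.3 summits inside transposons and 154 elsewhere, a ratio of 0.617. The ratio was 0.607, 0.521 and 0.589 in replicates 1, 2 and 3 (0.572 ± 0.0453) and thus below 1 in 3 of 3 libraries. An exact sign-flip permutation test over the libraries (two-sided) gave p = 0.25, the smallest p that 3 libraries allow, so no such test here can pass a threshold of 0.05.

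The direction depended on which bases were counted. Of transposon bases, 25.3% lie at the centre of a 50-mer that occurs once in the genome, against 90.4% of other bases, where gaps of unknown sequence count as not occurring once. Of the 775 member summits, 737 (95.1%) lay at such bases, as did 99.7% of the other summits. Counted over these bases alone, an alternative added after the data were seen, the ratio turned to 2.11 in the combined list and to 2.09, 1.78 and 2.04 in the libraries (1.97 ± 0.169). With 36-mers in place of 50-mers it was 2.23. In the list that passed a threshold on the irreproducible discovery rate (IDR, which measures how alike peaks rank in replicates), the ratio over unique bases was 0.354.

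The ratio differed between chromosome regions. Pericentric parts were taken as 2L from 22 Mb, 3L from 23 Mb, X from 22 Mb, 2R up to 5.4 Mb and 3R up to 4.6 Mb. They held 515 members, chromosome 4 held 99, and the rest of the arms 161. Within pericentric parts the ratio over all bases was 0.903, 0.992 and 0.949 in the libraries (0.948 ± 0.0450), close to 1. In the rest of the arms it was 0.215, 0.207 and 0.191 (0.204 ± 0.0122), and on chromosome 4 it was 0.809, 0.648 and 0.868 (0.775 ± 0.114). Over unique bases the same regions gave 1.22 ± 0.0469, 1.17 ± 0.0618 and 1.22 ± 0.172, so that the value over all arms, 1.97, lay above that of every region. In the rest of the arms 16.1% of transposon bases have a 50-mer that occurs once, and in pericentric parts 37.4%. Chromosome Y, with 80 records, held no member and 7 summits in all.

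**Figure D2:**
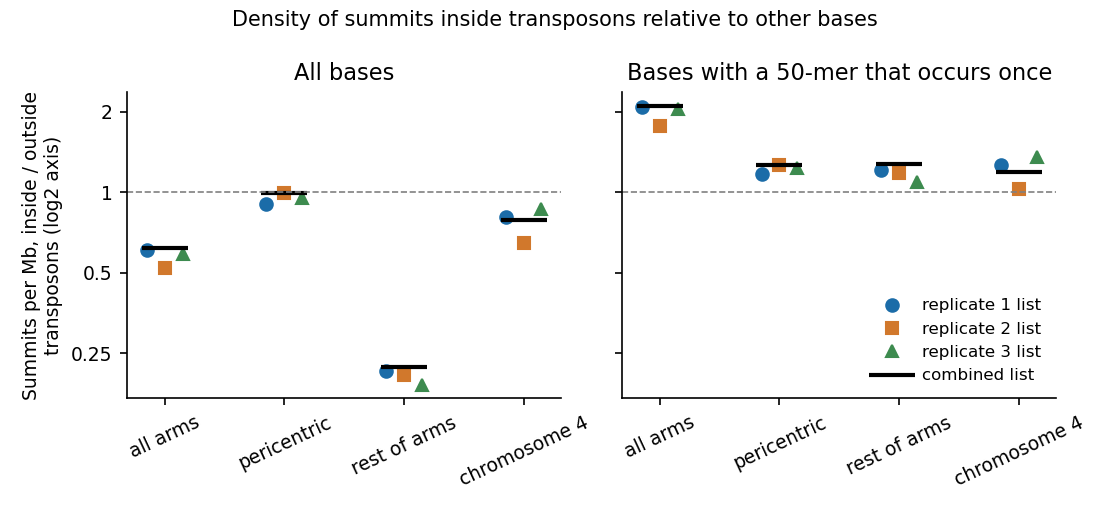
Ratio of summits per Mb inside transposons to summits per Mb elsewhere (vertical axis, log2 scale), by region (horizontal axis), over all bases (left) and over bases whose 50-mer occurs once (right). Points are libraries and black bars the combined list. All points on the left lie below the dashed line at 1 and all on the right lie above it.

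By arm, 2R held the most members with 319, of which 243 were pericentric, and 3L followed with 213, of which 195 were pericentric. On 2L there were 93, on 3R 31 and on X 20. In each library 2R came first and 3L second (235, 248 and 186 summits in replicates 1, 2 and 3), and X was last of the arms with members in each (17, 25 and 15). X has 912 transposon records against 1485 on 2R. Of the members, 318 (41.0%) lay within a protein-coding gene, against 56.5% of other summits. In an exon of a gene that is not a transposon lay 33 of the 775 members and 3272 of the 19986 other summits.

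Copies that held a summit had more sequence of their own than those that did not. Among records of 500 bp or more, the median share of bases with a 50-mer that occurs once was 93.9% in the 384 copies with a summit and 9.45% in the others. For LTR retrotransposons these medians were 95.6% and 2.94%, and for non-LTR retrotransposons 89.2% and 9.76%. Copies of this length did not divide in this way in INE-1, with 100% against 99.9%, in gypsy12, with 99.97% against 99.94%, or in gypsy8, with 97.8% against 98.3%. Of the 85 copies with no such base, 0 held a summit, which with 3 counts as the limit for a count of 0 allows up to 3.53%. Of 996 copies with up to 10% unique bases, 5 held a summit (0.502%, libraries 0.502% ± 0.266). Of 554 copies with over 90%, 218 did (39.4%, libraries 42.1% ± 4.44). Across 83 families of 20 kb or more, summits per Mb were higher where the unique share was higher (Spearman rho 0.83, Pearson r 0.77, a description over families that share the same libraries and genome).

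**Figure D3:**
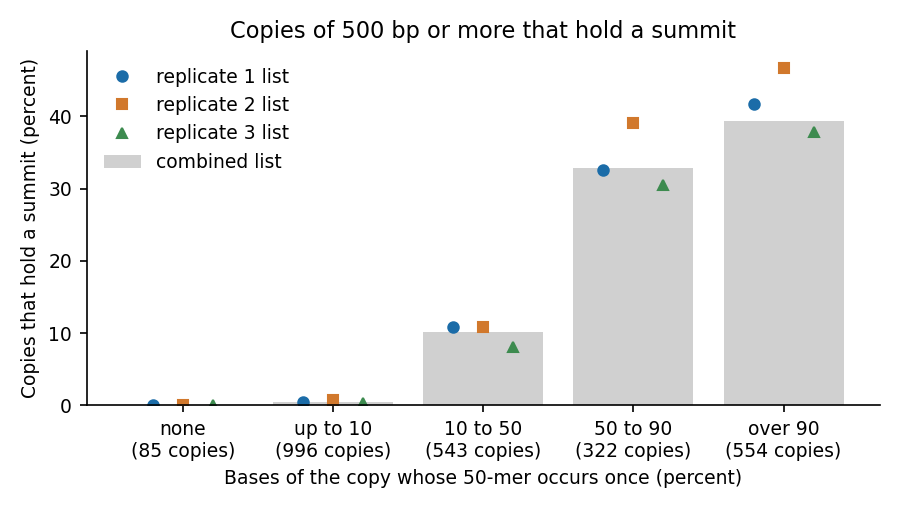
Percent of transposon copies of 500 bp or more that hold a summit (vertical axis), by the percent of their bases whose 50-mer occurs once (horizontal axis, number of copies in brackets). Bars show the combined list and points the 3 libraries, and the share climbs from 0 in copies with no unique base to 39.4% in copies with over 90%.

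Some long and highly repeated families held no member. Of the 83 families of 20 kb or more, 15 held none, the longest in all being blood with 207 kb and copia with 169 kb, both LTR retrotransposons. Their unique shares were 2.51% and 3.36%. TART-A, which like HeT-A is a retrotransposon of chromosome ends, also held none and had a unique share of 6.53%. An empty family in these lists cannot be told apart from one whose reads could not be placed, because the handling of reads with several matches is not given in the sources used here.

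Members were weak peaks. The authors' signal value, an enrichment that ranks peaks within 1 list, had a median of 73.2 inside transposons (quartiles 61.5 and 95.8) and 89.1 elsewhere in the combined list. The highest member reached 616 and rank 691, where the list reaches 5492. In the IDR list, which consists of the 5190 strongest peaks of the combined list, 33 of the 775 members were found (4.26%), against 25.8% of other summits and a background of 25% of all combined summits. Among the 5190 strongest peaks of each library's own list were 6.14%, 2.84% and 8.14% of the summits inside transposons and 23.6%, 17.8% and 28.1% of the others. The share was lower inside in 3 of 3 libraries (exact sign-flip permutation test, two-sided, p = 0.25, the smallest possible).

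The lower share in the IDR list was seen within each class of place. Among summits over 500 bp from any start site, 3.81% of members and 14.1% of other summits were in the IDR list. In pericentric parts the shares were 3.5% and 8.07%, on chromosome 4 they were 4.04% and 17.1%, and in the rest of the arms 6.83% and 28.9%. The median signal in pericentric parts was nearly the same inside and outside transposons, at 73.0 and 72.4.

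A smaller share of members than of other summits had a counterpart in every library. A summit was called recovered when a library's relaxed list had a summit within 100 bp. Of the members, 156 (20.1%) were recovered in all 3 libraries, 314 in 2, 263 in 1 and 42 in none, where 36.5% of other summits and a background of 35.9% of all combined summits were recovered in all 3. Replicates 1, 2 and 3 recovered 65.9%, 54.8% and 54.6% of members (58.5% ± 6.48) and 67.5%, 67.4% and 62.6% of other summits (65.8% ± 2.78). The difference was negative in 3 of 3 libraries (exact sign-flip permutation test, two-sided, p = 0.25), and in replicate 1 it was small. It also depended on place. In pericentric parts, which held 515 of the members, 19.2% of members and 21.0% of others were recovered in all 3 libraries. On chromosome 4 the shares were 18.2% and 25.2%, and in the rest of the arms 24.2% and 39.3%. Over 500 bp from any start site they were 19.2% and 27.0%. In 4 equal parts of the combined list, from strongest to weakest signal, 87.9%, 41.9%, 11.8% and 1.61% of members were recovered in all 3, against 88.0%, 48.0%, 7.25% and 0.445% of others. Only 33 members lay in the strongest part, against 215, 279 and 248 in the others. That part is nearly the IDR list itself (33 of 33 members and 5157 of 5158 others). That list was thresholded on agreement between replicates and holds the strongest peaks by combined signal, so its recovery is a description only. Over the stronger 50% of the list 48.0% of members and 68.3% of others were recovered in all 3.

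**Figure D4:**
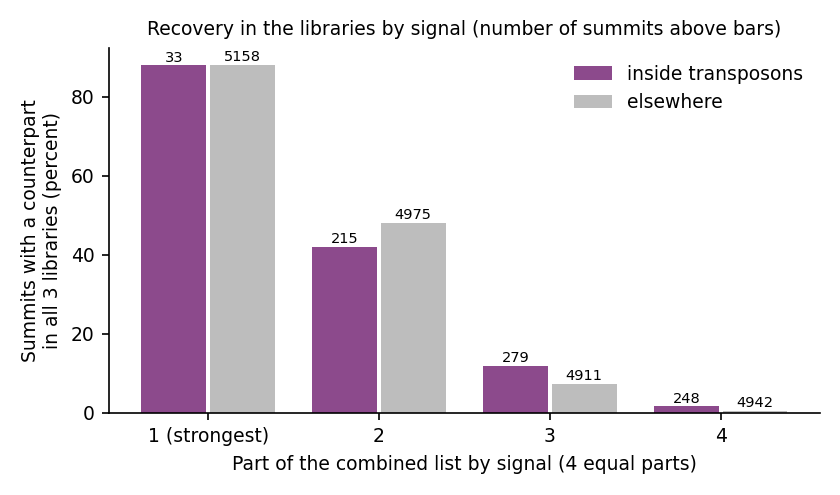
Percent of summits with a counterpart within 100 bp in all 3 libraries (vertical axis), in 4 equal parts of the combined list ordered by signal (horizontal axis), inside transposons and elsewhere, with the number of summits above each bar. In the strongest part the bars stand at 87.9% and 88.0%, and members are below the others in part 2 and above them in parts 3 and 4.

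Promoters were rare among members. Within 500 bp of a start site of a gene that is not a transposon lay 40 members (5.16%), against 34.9% of other summits and a background of 33.7%. The libraries gave 4.70%, 5.68% and 4.73% inside and 29.6%, 33.7% and 35.6% outside. INE-1 supplied 20 of the 40 and hoppel supplied 4. At promoters 5 of the 40 members were in the IDR list, against 47.6% of other promoter summits. These 5, named because they are few, lay in jockey{}1450 near Cnx99A, which encodes a calnexin, in FB{}1604 near SPoCk, which encodes a calcium pump of the secretory pathway, in micropia{}3335 near CR43671, in FBti0060885, a copy of another LTR retrotransposon, near CG12547 and in INE-1{}2044 near flam. The locus flam is known as a source of Piwi-interacting RNAs against gypsy and related elements. The summit in INE-1{}2044 lay 463 bp from the start of flam, with a combined signal of 187 and library signals of 71.1, 45.1 and 72.3 in replicates 1, 2 and 3.

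Many summits lay near the end of a record, so that flanking DNA may carry part of the peak. Within 100 bp of an end lay 225 members (29%) and within 200 bp 394 (50.8%), and the median distance was 195 bp. Beyond some of these ends lies another transposon record. With overlapping and adjoining records joined into blocks, 190 members (24.5%) lay within 100 bp of a block's end. The peak itself, 430 bp wide for 97% of members, reached past the record in 403 cases (52%). Just outside the rule, 257 summits lay within 100 bp of a record but not in it, with a median signal of 81.4 and 28 (10.9%) in the IDR list. For INE-1, whose records are short, 80 of 160 summits were within 100 bp of an end. For HeT-A and gypsy, 1 of 16 and 1 of 9 were.

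The 2 strongest families by single peaks were G5 and gypsy8. G5 is a non-LTR retrotransposon, and G5{}492 on 2L (21397182 to 21399884) held the strongest member, with a combined signal of 616. Its library signals were 194, 181 and 227 in replicates 1, 2 and 3, which rank 969, 641 and 669 in lists of different length. The nearest start site, 6735 bp away, belongs to the histone pseudogene His-Psi:CR31616. G5{}5178 on 3L (23258297 to 23260404), inside a protein-coding gene with nAChRalpha4, a nicotinic acetylcholine receptor subunit, as nearest start, held summits of signal 516 and 248. The first gave 231, 95.2 and 183 in the libraries and the second 88.5, 60.7 and 93.6. Of 8 summits in G5, 3 were in the IDR list, and the other 5 had signals of 54.2 to 96.7.

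The strongest gypsy8 summit lay in gypsy8{}2354 on 2L (22261074 to 22262565), 144 bp from an end of the copy and 11342 bp from the start of Tif-IA, a factor of RNA polymerase I. Its combined signal was 532 and its library signals 224, 100.2 and 203. Of the 29 gypsy8 summits, 28 were pericentric and 1 was in the IDR list. All 29 lay at unique 50-mers, in 21 of 56 copies. In gypsy12, 26 summits lay in 15 of 51 copies, 9 were recovered in all 3 libraries, and 13 of the 26 lay at places shared with another copy by alignment.

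INE-1 held the most summits but in a small share of its copies. Of 2235 copies, 145 (6.49%) held a summit, where the share was 25% for Cr1a, 37.5% for gypsy8 and 9.94% for hoppel. INE-1 copies are short, with a median of 146 bp, and those with a summit had a median of 374 bp. INE-1 is also the family with the most unique sequence among those named, 90.7% of its bases. Its density was 291 summits per Mb, below 571 for gypsy8 and 326 for gypsy12. Of the INE-1 summits 73 were pericentric, 38 on chromosome 4 and 49 in the rest of the arms, and 63.1% lay within a protein-coding gene. In the IDR list were 5 of the 160. The strongest lay in INE-1{}4982 on 2L (4030513 to 4030743), 716 bp from the start of ed, which encodes the adhesion protein Echinoid. Its combined signal was 402 and its library signals were 156, 103 and 142. The next, in INE-1{}4329 on 2R with Nipped-B, the cohesin loader, as nearest start, had a combined signal of 322 and 98.6, 104 and 116 in the libraries.

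INE-1 summits in different copies could be compared by alignment. Where windows around 2 summits of the family could be aligned over both (at least 75% identity over 80 bp), 380 of 1019 pairs had their summits within 50 bp of each other. Chained together, 117 of the 160 summits formed 1 group over 111 copies and 6 chromosome arms, which in so short an element spans much of its length. For hoppel the figures were 91 of 264 pairs and a largest group of 22 summits. Over all 40 families with 5 or more summits, 529 of 1450 pairs (36.5%) lay within 50 bp. Copies with a shared place have a common sequence, so they are not independent of each other. The share of pairs that random placement would put within 50 bp is not given here, so these shares cannot show a preferred place.

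Words known from fly insulator and promoter factors were searched exactly, on both strands, within 100 bp of each summit, and a match describes letters only. They were TATCGATA (the DREF word), GGTCACACT, AGGTGGCG (part of the CTCF word), GAGAGAG (the GAGA factor word), CAGGTAG (the Zelda word) and CACGTG (an E-box), and matches were counted once per summit however many overlapped. At least 1 word was found at 91 members (11.7%) and 12.7% of other summits. GGTCACACT was found at 4 members (0.516%) and at 2.61% of other summits. AGGTGGCG was found at 3 members (0.387%) and 0.961% of other summits, and CACGTG at 13 members (1.68%) and 2.32%. CAGGTAG went the other way, with 10 members (1.29%) and 0.851% of other summits. Away from promoters the order for any word turned, with 11.3% of members and 8.36% of other summits. There GGTCACACT was nearly equal, at 0.408% and 0.369%. AGGTGGCG (0.272% and 0.991%), CACGTG (1.63% and 2.22%) and CAGGTAG (1.22% and 0.860%) kept their direction.

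TATCGATA was found at 26 members (3.35%), close to the 3.46% of other summits, and 24 of the 26 lay in INE-1. Away from promoters the shares were 3.27% inside and 0.922% outside transposons. Such a window is found around 0.565% of all bases, 1.02% of transposon bases and 11.1% of INE-1 bases, and around 15% of INE-1 summits. In INE-1 the summits with the word had a median signal of 105 and those without it 72.4, with 3 of 24 and 2 of 136 in the IDR list and 8 of 24 (33.3%) and 29 of 136 (21.3%) recovered in all 3 libraries. The median distance from the word to the summit was 40.5 bp. The summits of the 5 INE-1 copies printed above with this word were not in the IDR list. Their library signals were 54.2, 30.02 and 65.5 for INE-1{}5608, 75.5, 44.6 and 58.7 for INE-1{}5485, and 63.6, 47.5 and 45.0 for INE-1{}2257. INE-1{}4837 and INE-1{}4159 had no counterpart in replicate 1.

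Length moves with the word: copies with it have a median of 364 bp and copies without it 129 bp. Over all lengths, 38 of 344 INE-1 copies with TATCGATA held a summit (11.0%) and 107 of 1891 without it (5.66%). The libraries gave 13.1%, 16.6% and 10.5% with the word and 5.61%, 7.99% and 4.55% without. Among copies from 200 bp to under 800 bp the shares were 13.0% and 10.6%. In this class the share was higher with the word in each library, at 13.9%, 19.0% and 12.6% against 9.94%, 13.6% and 9.29%. Among the 1235 copies without the word and the 89 with it that were under 200 bp, the shares were 2.51% and 1.12% in the combined list, while the library means were 2.86% ± 1.32 and 3.37% ± 2.25. Among those of 800 bp or more the combined list gave 29.2% with the word and 31.2% without, and the library means were 33.3% ± 8.33 and 33.3% ± 10.05. The direction thus differed between length classes and lists, and no test was run on it.

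GAGAGAG was found at 39 members (5.03%) and 3.22% of other summits, and 18 of the 39 lay in hoppel. Within hoppel, 32.1% of summits had the word nearby, against 15.5% of all hoppel bases. Counted by copies of 800 bp or more, the order was the other way: 30 of 287 copies with the word held a summit (10.5%) and 4 of 24 without it (16.7%). The libraries gave 8.36%, 10.8% and 9.06% with the word and 20.8%, 33.3% and 16.7% without. Unique bases made up 28.4% of the copies with the word and 57.9% of those without, and the part of this in the difference was not tested. None of these 18 was in the IDR list, nor was any of the 39, and 2 of the 18 were recovered in all 3 libraries. Their signals ran from 54.2 to 105 with a median of 86.1, where hoppel summits without the word had a median of 70.4.

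The strongest hoppel summits lay apart from that word. The copy FBti0020434 on chromosome 4 (788939 to 796792), a large record of 7854 bp, held a summit 16 bp from its end, with Sox102F, which encodes a Sox family transcription factor, as nearest start at 7304 bp. Its combined signal was 376, and replicates 1, 2 and 3 gave 116, 113 and 147. The copy FBti0061714 on 2R, 865 bp from the start of the catenin gene p120ctn, had a combined signal of 246 and 96.3, 58.2 and 88.8 in the libraries. These were the 2 summits of hoppel in the IDR list. Of the 56 summits, 31 were pericentric and 16 on chromosome 4, and 49 of 493 copies held one.

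HeT-A summits lay close to chromosome ends, where the intact arrays of this element are. Of the 16, 12 lay on chromosome 4 between 28586 and 69222 bp from its assembled end, in HeT-A{}6278, HeT-A{}6270 and HeT-A{}6262. A further 3 lay on X, 112506 to 116295 bp from its end, in HeT-A{}4795 and HeT-A{}5504, and 1 on 2R, 24170 bp from its end. HeT-A{}6262 alone held 7 summits, as many as any record and as many as HMS-Beagle{}4605, a record of 27676 bp. All 16 lay at 50-mers that occur once, although 20.7% of HeT-A bases do. Its strongest summit had a combined signal of 453 and library signals of 153, 94.1 and 212, and the second, in the same copy, gave 220 with 71.6 and 87.4 in replicates 1 and 3 and no counterpart in replicate 2. Both were in the IDR list. Of the 16, 5 were recovered in all 3 libraries and each in at least 1. The median signal of HeT-A, 115.0, was the highest of the named families, and on chromosome 4 as a whole the member median was 74.7. The copies on X and 2R had signals of 59.0 to 111 and were in 1 or 2 libraries each.

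Of the 9 summits in gypsy, 4 lay 621 to 694 bp from the 5′ end of their copy. Of 22 copies, 6 were nearly full length (7318 to 7466 bp), and 4 of these held a summit, at 626 bp from the 5′ end in gypsy{}615 on 2R, at 621 bp in gypsy{}RR50358 on 3L, at 625 bp in gypsy{}RR48391 on 3R and at 694 bp in gypsy{}6524 on 3L. By alignment the first 3 summits formed 1 group within 50 bp, and that of gypsy{}6524 was not in it. These first 3 were 98.3% to 99.2% identical around their summits and are not independent sequences. In gypsy{}615 the combined signal was 179, with 77.9, 40.9 and 58.7 in replicates 1, 2 and 3. In gypsy{}RR50358 it was 196, with 86.0, 47.0 and 67.4, and in gypsy{}6524 it was 232, with 99.8, 62.1 and 77.5. The summits of gypsy{}615, gypsy{}RR50358 and gypsy{}6524 were in the IDR list and in all libraries. gypsy{}RR48391 was weaker, at 77.6, with 32.6 and 24.3 in replicates 1 and 2 and no counterpart in replicate 3.

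The 4 summits lay on bases that tell these copies apart. In gypsy{}RR48391, 73 of 7461 bases have a 50-mer that occurs once, in gypsy{}RR50358 145, in gypsy{}6524 266 and in gypsy{}615 1787, and each summit lay on such a base. The nearly full-length copies without a summit, gypsy{}RR48375 and gypsy{}6525, had 236 and 68. The insulator of gypsy is known as a row of binding sites of Su(Hw) in the leader of the element, and TGCATA is the core of that site. This word, added after the data were seen, was found 12 times in the first 1000 bp of gypsy{}615, gypsy{}RR50358, gypsy{}RR48391 and gypsy{}RR48375, 7 times in gypsy{}6524 and 8 times in gypsy{}6525. Within 100 bp of the 4 summits it occurred 2, 2, 2 and 4 times, the last in gypsy{}6524. It was found at 10.3% of all members and 14.1% of other summits, and 3 or more times at 0.258% and 0.305%. The other 5 gypsy summits, in 4 shorter copies, had signals of 55.6 to 148.99 and were in 1 or 2 libraries each.

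**Figure D5:**
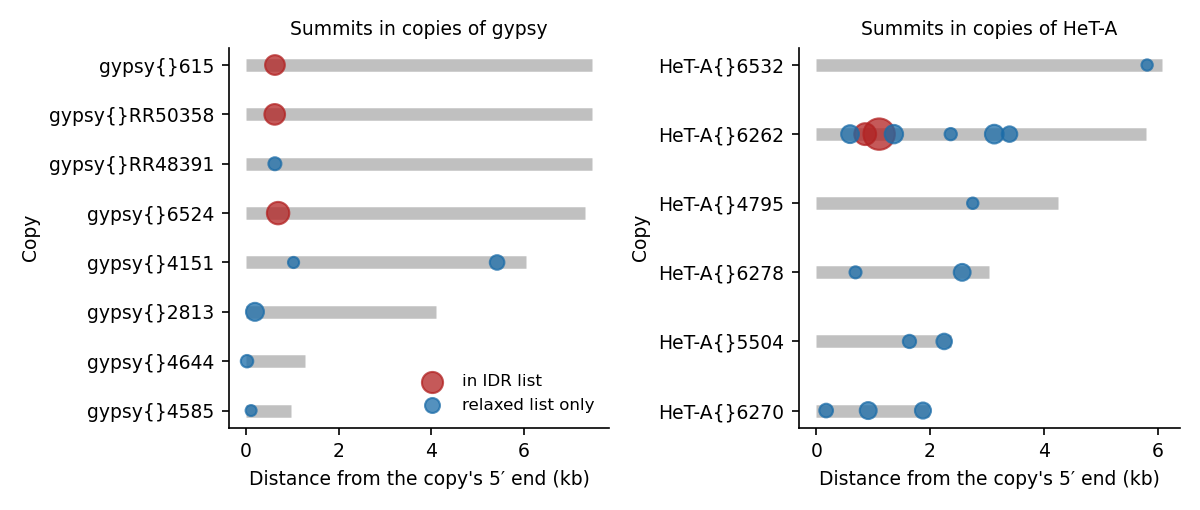
Position of each summit along the copies of gypsy (left) and HeT-A (right) that hold one, as distance from the 5′ end of the copy in kb (horizontal axis), with grey bars for copy length and circle area proportional to combined signal. Red circles are in the IDR list, and in the 4 longest gypsy copies the summit lies 0.621 to 0.694 kb from the 5′ end.

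Other strong copies were single cases. Tc1-2{}2278 on 3R, a fragment of 76 bp within a gene and 541 bp from the start of the histone acetyltransferase cofactor gene Ada2b, had a combined signal of 330 and library signals of 144, 110 and 85.6. jockey{}1450 on 3R gave 331, with 125, 76.2 and 134, and its summit was the one member of the IDR list whose 50-mer occurs more than once. It belonged to a group of 4 jockey summits with 99.6% to 100% identity, whose other signals were weaker. FB{}1604 on 3L gave 325 with 126, 94.3 and 102, invader5{}1644 on 2L gave 305 with 138, 70.6 and 118, and gypsy3{}4227 on 2R gave 284 with 120, 54.4 and 115.

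Among the retrotransposons with many summits but few strong ones, Cr1a and Rt1a had no summit in the IDR list. The strongest Cr1a summit, in Cr1a{}688 on 2R, had a combined signal of 172, just below the lowest of the IDR list at 173, and library signals of 65.7, 28.2 and 79.9. The strongest Rt1a summit, in Rt1a{}3878, had 152, with 69.3 and 63.9 in replicates 1 and 3 and no counterpart in replicate 2. Rt1b had 3 of 23 in the IDR list, led by Rt1b{}4528 on 2R with 261 and library signals of 100.2, 62.7 and 124.

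The 33 members in the IDR list came from 21 families. Of these summits, 18 were pericentric, 11 were in the rest of the arms and 4 on chromosome 4. In all 3 libraries 29 were recovered, and 32 lay at 50-mers that occur once. The GC content around members had a median of 41.3%, against 38.3% around other summits and 39.0% over all transposon bases.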

How the data were processed

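Peak lists of ChIP-seq for Lhr-eGFP in 3 replicate libraries were analysed. Per the file headers and text listings, the authors made a relaxed list of peaks and background for each library against 1 control alignment, a combined relaxed list, and a list thresholded on the irreproducible discovery rate. No source used here gives the aligner, the peak caller, their versions, the read length, the handling of reads with several matches or the threshold. The deposited signal is the authors' enrichment value and ranks peaks within a list; the deposited distance from peak start to summit places the summit. Read depth is unknown, so precision is shown by the spread over 3 libraries. Lists on dm3 were not used.

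Summits were intersected with transposable element records of Ensembl release 115 (Release 6). Uniqueness of 50-mers was counted over both strands of the RefSeq Release 6 genome. Windows were aligned with blastn 2.17.0. Python 3.11.15, numpy 2.4.6, pandas 2.3.3, scipy 1.17.1 and matplotlib 3.10.9 were used, and scripts were tested on simulated data. Tests were exact sign-flip permutation tests over libraries. Where all libraries differ in the same direction, the exact sign-flip permutation test returns its smallest possible value, whatever the spread between libraries. Nothing beyond the labels says how separate the embryo samples were. Families, words, borders and the naming rule (INE-1, HeT-A, gypsy, hoppel, the 8 families with most summits, the 12 strongest copies, the strongest of each named family) were chosen with earlier results of these data known. Families were placed in classes from general knowledge. Alternatives were the IDR list, the upper part of the list by signal, peak midpoints, summits 100 bp inside records, other distances, each library left out, and unique bases.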

Additional observations from a re-analysis of the deposited data

How the results depend on the processing

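The density ratio, the IDR share and the recovery kept their direction, inside against outside transposons, with every other list, distance and left-out library tried. Density ratios ran from 0.102 in the IDR list to 0.616 by peak midpoints. Most member peaks are 430 bp wide with the summit at their centre, so midpoints could hardly change any value. Recovery in the IDR list, itself thresholded on agreement between replicates, was near equal (87.9% against 88.0%). The ratio reversed, to 2.11 over bases whose 50-mer occurs once and 2.23 with 36-mers, both added after the data were seen; within pericentric parts, the rest of the arms and chromosome 4 it was 0.991, 0.223 and 0.789. In the IDR list the count fell to 33 and the share to 0.636%, with 30.3% near an edge and 15.2% at promoters. In the upper part of the list by signal they were 248, 2.39%, 33.9% and 8.06%. Summits at least 100 bp inside records made up 2.77% of all, with 3.99% at promoters. With 200 bp as the limit, 1.81% lay at promoters and 50.8% near an edge. Leaving out 1 library, by keeping summits with a counterpart in both others, gave counts of 234, 269 and 279 without replicates 1, 2 and 3. Shares were 2.49% to 2.86%, density ratios 0.406 to 0.469 and IDR shares 10.8% to 12.4%. Near an edge lay 30.5% to 33.3% and at promoters 6.69% to 7.69%, and recovery was 30.2% to 36%. The combined and IDR lists were still those made with all libraries, so the left-out library kept its part in them. Recovery was 11.2% with counterparts within 50 bp and 34.5% within 200 bp. Why these values moved was not tested, except that the stricter lists hold fewer, stronger peaks by construction. Family counts kept within 1.5 times the main count by peak midpoints and when every record was counted (INE-1 170, hoppel 61, HeT-A 16, gypsy 13), and INE-1 fell to 88 at least 100 bp inside. Without replicates 1, 2 and 3 in turn they moved further, to 54, 46 and 67 for INE-1, 10, 15 and 19 for hoppel, 6, 7 and 8 for HeT-A and 3, 4 and 6 for gypsy. With 1 group no groups could be paired by replicate number, and inside and outside were compared within each library. Depth is unknown, and an absent family or copy may lie below what these lists can show.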
